A study of Mus musculus with 2 samples.

Results

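The 8 genes Hmgcs1, Idi1, Fdps, Fdft1, Sqle, Lss, Srebf2 and Insig1 of cholesterol synthesis were taken by symbol from the deposited FPKM values, and all 8 were found among 24346 listed symbols. FPKM scale the sequenced fragments of a gene to the length of its exons and to the mapped fragments of the library. Of these, 6 encode enzymes and 2 encode regulators of the pathway, and none is a receptor for cholesterol uptake, which is covered here by genes outside the 8. The values come from 2 libraries of GFP+CD4+ cells, 1 from spleen and 1 from lung, sorted on day 15 from Foxp3-DTR-GFP (FDG) mice that had received 50 μg of bleomycin (BLM) intratracheally at 10 to 16 weeks of age. Foxp3 marks regulatory T cells (Tregs), and since the reporter allele ties GFP to Foxp3, the sorted cells are called Tregs. Each library holds the pooled cells of 3 mice. Both libraries carry the same reporter allele and the same BLM treatment, and cells of untreated mice were not analysed here. With 1 library per tissue differences were not checked in replicates and no test was run, and in such pooled RNA, fewer cells of a type and less RNA per cell cannot be told apart.

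Cholesterol is built from acetyl-CoA. HMG-CoA synthase acts early on the way to mevalonate, which is turned into isoprenoid units and joined to farnesyl diphosphate, a branch point that also feeds protein prenylation, dolichol and ubiquinone. Squalene synthase commits farnesyl diphosphate to sterols, and squalene epoxidase and lanosterol synthase then form lanosterol, the first sterol. When sterol in the endoplasmic reticulum is low, the transcription factor SREBP-2, encoded by Srebf2, is released from its membrane by the escort protein SCAP and switches on nearly all of these genes together with its own, whereas INSIG proteins hold SCAP back when sterol is plentiful. T cells use the pathway for membranes when they divide, and in Tregs the mevalonate pathway is known to be needed for suppressive function.

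SREBP-2 binds the sterol regulatory element (SRE) and acts with NF-Y at CCAAT boxes and Sp1 at GC boxes. Promoter sequences from RefSeq (GRCm38.p6, the assembly of mm10) matched 5 of the 8 genes, Hmgcs1, Idi1, Lss, Srebf2 and Insig1. Fdps, Fdft1 and Sqle had no entry. The 250 bases before each RefSeq start were searched on both strands for the SRE letters TCACNCCA, for CCAAT and for GGGCGG, which overlapped in no member. The promoters of Hmgcs1, Srebf2 and Insig1 are shown because they belong to an enzyme, to the activator and to the feedback inhibitor. Capitals mark matches to any of these motifs, and each sequence stops before the GENCODE gene start, on the plus strand of chr13:119690101-119690350, chr15:82147019-82147180 and chr5:28071162-28071362.
Hmgcs1: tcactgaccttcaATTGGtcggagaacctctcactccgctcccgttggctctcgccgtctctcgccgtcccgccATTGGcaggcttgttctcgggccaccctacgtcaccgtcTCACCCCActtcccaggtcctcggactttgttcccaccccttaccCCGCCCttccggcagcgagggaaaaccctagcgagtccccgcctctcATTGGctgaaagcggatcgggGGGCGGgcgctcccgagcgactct
Srebf2: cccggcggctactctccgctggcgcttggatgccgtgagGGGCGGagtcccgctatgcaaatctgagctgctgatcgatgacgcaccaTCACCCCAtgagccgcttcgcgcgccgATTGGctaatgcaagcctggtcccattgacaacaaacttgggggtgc
Insig1: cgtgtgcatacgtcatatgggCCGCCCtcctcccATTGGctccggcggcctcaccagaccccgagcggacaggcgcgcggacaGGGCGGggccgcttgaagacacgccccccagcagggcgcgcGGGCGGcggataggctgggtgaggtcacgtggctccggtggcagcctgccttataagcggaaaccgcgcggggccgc
The SRE letters, as TCACCCCA, began 137 bases before the RefSeq start of Hmgcs1 and 162 bases before that of Srebf2, and were not in the windows of Insig1, Idi1 and Lss. Among all 32851 promoter windows, 3.67% held the SRE letters, 33.8% CCAAT and 32.7% GGGCGG. All 5 members had at least 1 CCAAT and 1 GGGCGG on either strand, with 3 CCAAT boxes in Hmgcs1 and 4 GC boxes in Srebf2. Of the GC boxes in Srebf2, those 79, 52 and 34 bases before the RefSeq start lie past the GENCODE start. They are therefore not in the sequence shown. All matches in Idi1, 69, 45 and 14 bases before its RefSeq start, also lie past its GENCODE start. A match of letters describes the window and does not show binding.

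Both libraries carried RNA of all 8 genes, and in the values as deposited no gene differed by more than 2-fold between lung and spleen. When FPKM of each library were rescaled to the same total (TPM), Sqle and Srebf2 were over 2-fold lower in lung. FPKM of the 8 ran from 4.33 to 73.7 in spleen, with a median of 19.0, and from 3.82 to 78.9 in lung, with a median of 16.6. All 8 passed the minimum of 1 FPKM in the higher library, and 7 reached 10 FPKM there. Values under 0.1 FPKM were set to 0.1 for the ratio. Over the 12094 genes that reached 1 FPKM in at least 1 library, 17.8% exceeded spleen more than 2-fold in lung and 15.5% were over 2-fold lower. Among the 7279 genes that reached 10 FPKM these shares were 11.6% and 9.15%. Of the 8 genes, 0 were over 2-fold higher and 0 over 2-fold lower. At a threshold of 1.5-fold, 0 of the 8 were higher and 2 (Sqle and Srebf2) lower, against 27.4% and 25.4% of all genes. The median log2 ratio of lung to spleen was -0.19 for the 8 genes and 0.03 for all 12094.

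**Figure D1:**
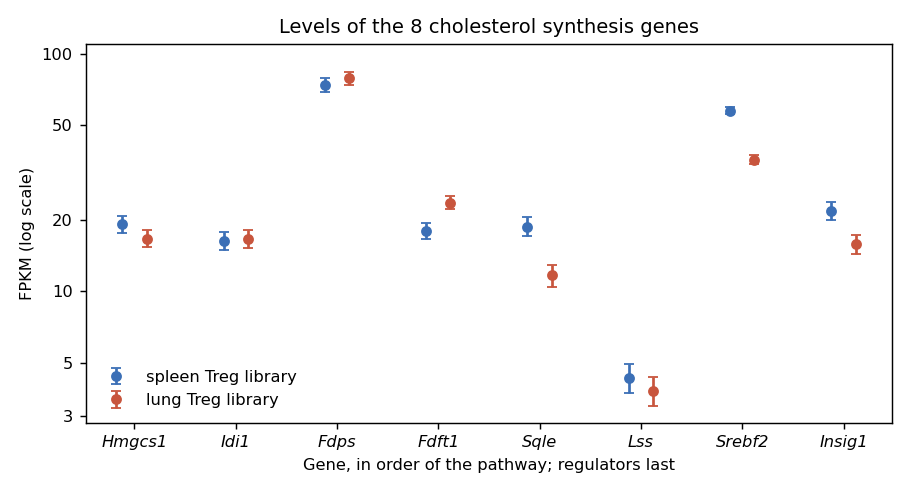
FPKM on a log scale of the 8 genes in the spleen Treg library and the lung Treg library, 1 point per library, with bars for the 95% counting interval of the estimated reads. Fdps was highest and Lss lowest in both libraries, and the bars of Sqle, Srebf2, Insig1 and Fdft1 do not overlap between the libraries.

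Of the 8 genes, Fdps, Srebf2, Hmgcs1 and Lss held the same rank in both libraries, though that of Hmgcs1 was not resolved in either. Fdps was first at 73.7 FPKM in spleen and 78.9 in lung, Srebf2 second at 57.6 and 35.9, Hmgcs1 at rank 4 at 19.2 and 16.7, and Lss last at 4.33 and 3.82. Among genes above 0 FPKM in the same library, Fdps stood at percentile 90.8 in spleen and 89.0 in lung, and Lss at 41.9 and 34.8. The highest of the 8 exceeded the lowest 17.0-fold in spleen and 20.7-fold in lung. In spleen, Hmgcs1, Sqle, Fdft1 and Idi1 lay within 16.3 to 19.2 FPKM, with counting intervals that overlapped. That of Insig1, at 21.8 FPKM, also overlapped those of Hmgcs1 and Sqle. The order of these 5 is therefore not fully resolved, although the interval of the ratio of Idi1 to Sqle lay below 1 (0.766 to 0.988). In lung, Hmgcs1, Idi1 and Insig1 lay within 15.8 to 16.7 FPKM and were likewise not resolved, whereas Fdft1 stood above them at 23.6 and Sqle below them at 11.7.

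The genes of the mevalonate steps, Hmgcs1, Idi1 and Fdps, had log2 ratios between -0.20 and 0.10 as deposited. Hmgcs1 encodes cytosolic HMG-CoA synthase and lies on the plus strand of chromosome 13 from 119690379 to 119708260 in GRCm38. It had 19.2 FPKM in spleen and 16.7 in lung, or about 625 and 618 estimated reads, a log2 ratio of -0.20 with a 95% counting interval of -0.36 to -0.04. Idi1, the isomerase that interconverts the 2 isoprenoid units, lies on the plus strand of chromosome 13 from 8885501 to 8892451. It had 16.3 FPKM in spleen and 16.6 in lung, about 477 and 551 reads, a log2 ratio of 0.03 (-0.15 to 0.20). Fdps encodes farnesyl diphosphate synthase, whose product is the substrate of farnesyltransferase and of squalene synthase, and lies on the minus strand of chromosome 3 from 89093588 to 89101959. It was at 73.7 and 78.9 FPKM, about 841 and 1023 reads, a log2 ratio of 0.10 (-0.03 to 0.23). For Idi1 and Fdps the interval held 0, whereas that of Hmgcs1 lay below 0. In TPM all of them were lower in lung, Hmgcs1 at -0.63, Idi1 at -0.41 and Fdps at -0.33. That rescaling lowered the median log2 ratio of the same 12094 genes by 0.43. Idi1 was also lower, at -0.01, with the median ratio of all genes tested set to 1. Of the 1453 RefSeq exon bases of Fdps, 1124 lie in exons of Gm43738, a protein-coding gene on the same strand. Exons of Hmgcs1 and Idi1 are shared in part with the antisense or unclassified genes Gm48342 and Gm48574. None of these overlapping genes has a listed value. These intervals cover the counting of reads only, and PCR copies of a molecule are counted separately.

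The 3 genes from farnesyl diphosphate to lanosterol, Fdft1, Sqle and Lss, went in different directions. Fdft1 encodes squalene synthase, the first enzyme committed to sterols, and lies on the minus strand of chromosome 14 from 63145150 to 63179578. It had 18.03 FPKM in spleen and 23.6 in lung, about 652 and 970.3 reads, a log2 ratio of 0.39 (0.25 to 0.54), higher in lung in every scaling tried except TPM, where it was -0.04. Of its 3698 exon bases in the RefSeq transcript, 774 (20.9%) lie under exons of Ctsb, the gene of cathepsin B on the opposite strand. The library kit is not stated to keep the strand, so reads of the shared stretch cannot be assigned to either gene. Ctsb had 198 FPKM in spleen and 536 in lung, a log2 ratio of 1.43, and its part in the value of Fdft1 was not tested.

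Sqle encodes squalene epoxidase, which adds oxygen to squalene and is a rate-limiting step of the sterol branch, and lies on the plus strand of chromosome 15 from 59315077 to 59331192. It had 18.8 FPKM in spleen and 11.7 in lung, about 496 and 350.3 reads. Its log2 ratio was -0.68 (-0.89 to -0.49), which is 1.61-fold lower in lung, and 22.3% of all genes tested had a lower ratio. Lss encodes lanosterol synthase and lies on the plus strand of chromosome 10 from 76531588 to 76557138. It had the lowest level and the fewest reads of the 8, 4.33 FPKM in spleen and 3.82 in lung from about 200.3 reads in each library, and a log2 ratio of -0.18 (-0.47 to 0.11) whose interval held 0. An antisense gene, 4930483K19Rik, shares 381 of its 4667 exon bases and had 0.844 FPKM in spleen and 0.661 in lung.

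The ratio of Fdft1 to Sqle within a library does not depend on the scaling between libraries. It was 0.961 in spleen (counting interval 0.853 to 1.08) and 2.02 in lung (1.79 to 2.29). In spleen the transcripts of these consecutive steps were thus at equal FPKM within counting error, and in lung Fdft1 was the higher. The ratio of Idi1 to Sqle was 0.870 in spleen (0.766 to 0.988) and 1.42 in lung (1.24 to 1.63). These pairs were chosen after their values had been seen, and the part of the exons shared with Ctsb enters the first of them.

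Both regulators were lower in lung as deposited and in every scaling tried. The scalings moved log2 ratios by -0.43 at the lowest and 0.003 at the highest. None of them could therefore have turned the direction of these 2 genes, and their agreement is not a check. Srebf2 encodes SREBP-2 and lies on the plus strand of chromosome 15 from 82147181 to 82205379. It had 57.6 FPKM in spleen and 35.9 in lung, about 2909 and 2056 reads, a log2 ratio of -0.68 (-0.77 to -0.60), or 1.61-fold lower in lung. Insig1, the sterol-sensing inhibitor that is itself a target of SREBP-2, lies on the plus strand of chromosome 5 from 28071363 to 28078662. It had 21.8 FPKM in spleen and 15.8 in lung, about 563 and 462 reads, a log2 ratio of -0.47 (-0.65 to -0.29). Insig1 stood to Srebf2 at 0.379 in spleen (0.345 to 0.415) and 0.440 in lung (0.397 to 0.487). The ratio of Fdps to Srebf2 was 1.28 in spleen (1.18 to 1.38) and 2.2 in lung (2.04 to 2.37), so that the enzyme and the activator were further apart in lung. These pairs were also chosen after their values had been seen.

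**Figure D2:**
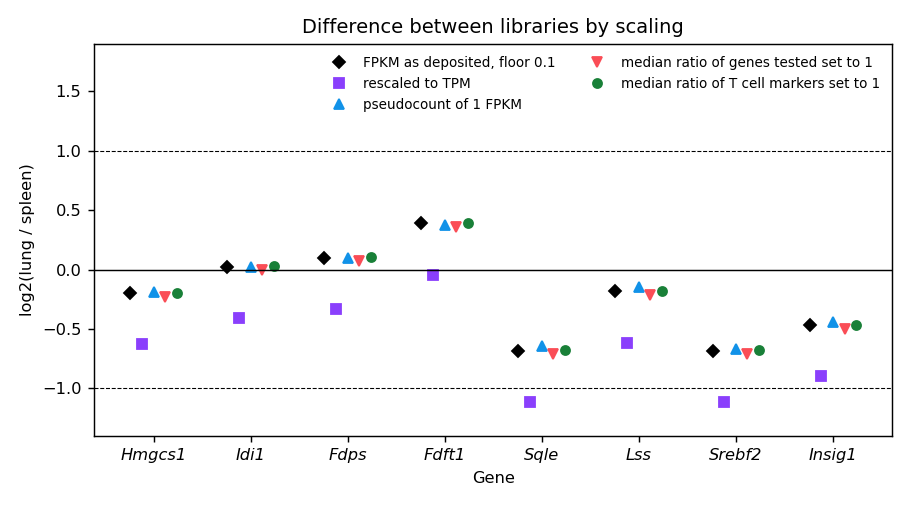
The log2 ratio of lung to spleen of each of the 8 genes under 5 ways of scaling, with dashed lines at 2-fold and a line at 0. Sqle, Srebf2 and Insig1 lie below 0 under each, and rescaling to TPM moves all 8 genes below 0, with Sqle and Srebf2 at -1.12.

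The scaling between libraries set the direction of part of the 8 genes. As deposited, 3 were higher in lung (Fdft1, Fdps and Idi1) and 5 were lower. Hmgcs1, Sqle, Lss, Srebf2 and Insig1 were lower in all 9 settings of floor, pseudocount and scaling. No scaling raised log2 ratios by more than 0.003, and no floor or pseudocount could turn the sign, so these 5 could not become higher. After rescaling to TPM all 8 were lower, and Sqle and Srebf2 passed 2-fold, both at -1.12. In TPM, 13.3% of the 12594 genes that reached 1 TPM exceeded 2-fold towards lung and 27.5% towards spleen. As deposited, the shares were 17.8% and 15.5% of the 12094 genes that reached 1 FPKM. Relative to the median of all genes tested, the median of the 8 was lower, with a difference of -0.22 at the lowest and -0.20 at the highest. Each rescaling multiplies a whole library by 1 factor, so it moves both medians nearly alike. The floors tried lie below all values of the 8 genes. These settings could therefore hardly change the difference, and its steadiness is not a check of it.

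The other enzymes of the route to cholesterol were read from a list of 4 further mevalonate enzymes and 9 enzymes between lanosterol and cholesterol. With the 6 enzymes among the 8 genes these are 19, of which 17 were within 2-fold. In lung, 0 were over 2-fold higher and 2 over 2-fold lower (Pmvk and Lbr), against 17.8% and 15.5% of all genes tested. Their median log2 ratio was -0.01. Rescaled to TPM, 3 were over 2-fold lower, with Sqle added, against 27.5% of all genes. Their median in TPM was -0.44, against -0.42 for all genes. Pmvk, phosphomevalonate kinase, had 14.7 FPKM in spleen and 5.62 in lung, a log2 ratio of -1.39 from about 145 and 62.7 reads. Mvd, the decarboxylase that makes the isoprenoid unit, was at 11.7 and 10.8 FPKM, and Acat2, a thiolase of the first step, was at 15.0 and 16.2. The log2 ratios of these 4 genes thus ran from -1.39 for Pmvk to 0.11 for Acat2.

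Beyond lanosterol, Lbr had 127 FPKM in spleen and 58.7 in lung, a log2 ratio of -1.12. Its product is a sterol reductase and also anchors heterochromatin to the nuclear lamina. Hsd17b7, a sterol ketone reductase, was at 2.30 and 1.65 FPKM, a log2 ratio of -0.47 from about 105 and 85.7 reads. Sc5d, a sterol desaturase, was the highest in lung relative to spleen, with 43.1 and 67.6 FPKM and a log2 ratio of 0.65. Of the 9 genes of this stretch, 4 were higher and 5 lower in lung as deposited.

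**Figure D3:**
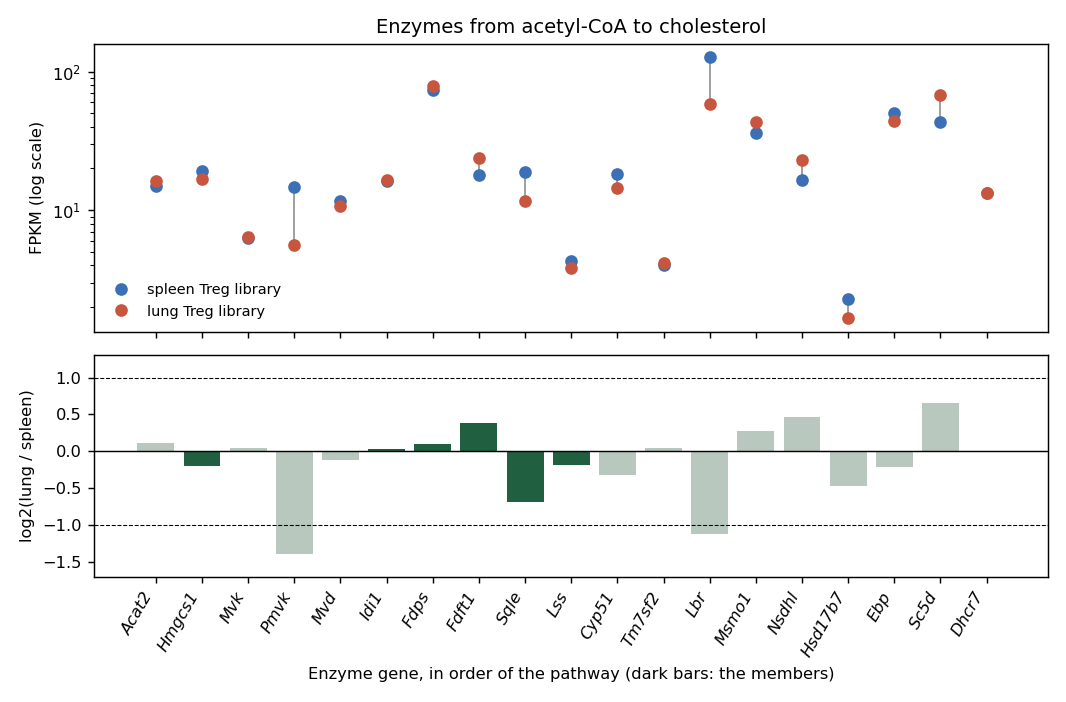
The 19 enzyme genes between acetyl-CoA and cholesterol in order of the pathway, with FPKM in each library on a log scale above and the log2 ratio of lung to spleen below, where dark bars are the 6 enzymes among the 8 genes and dashed lines mark 2-fold. Of the 19, 17 are within the 2-fold lines, and Pmvk and Lbr lie below them. Of all genes tested, 17.8% were over 2-fold higher in lung and 15.5% over 2-fold lower.

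Among 6 further regulators of SREBP, 0 were over 2-fold higher or lower in lung, against 17.8% and 15.5% of all genes tested. Their median log2 ratio was -0.11. Srebf1, whose products favour fatty acid genes, had 18.1 FPKM in spleen and 17.1 in lung, a log2 ratio of -0.08. Mbtps1, the protease that makes the first cut in SREBP, was at 31.7 and 16.2 FPKM, a log2 ratio of -0.97 that passed 2-fold in TPM. Insig2, the isoform of Insig1, was at 12.7 and 17.2 FPKM, a log2 ratio of 0.44, and Mbtps2, the protease of the second cut, was at 1.55 and 1.79. The isoforms of INSIG therefore lay on opposite sides of equality in the values as deposited.

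Uptake of cholesterol is the counterpart of synthesis. Of 9 genes of uptake and lysosomal export, 8 reached 1 FPKM. Of these, 2 were over 2-fold higher and 1 over 2-fold lower in lung, against 17.8% and 15.5% of all genes tested. Their median log2 ratio was 0.35, or -0.08 in TPM. The list mixes receptors with genes of lysosomes and sterol transport, so its median does not measure uptake. The 2 genes over 2-fold higher do not encode receptors. Stard4, a cytosolic sterol carrier, had 5.18 FPKM in spleen and 15.3 in lung, a log2 ratio of 1.57, and Lipa, the lysosomal acid lipase, was at 53.1 and 111, a log2 ratio of 1.06. Scarb1, a receptor for high density lipoprotein, was at 10.5 and 3.78 FPKM, a log2 ratio of -1.47. Vldlr, a lipoprotein receptor, was the gene that did not reach 1 FPKM, with 0 in spleen and 0.0106 in lung, less than 1 read. In TPM, Lipa was within 2-fold, and Stard3 joined Scarb1 among the genes over 2-fold lower.

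Genes of cholesterol efflux, sterol sensing by LXR and esterification included larger differences. Of 8 genes 7 reached 1 FPKM. Of these, 3 were over 2-fold higher and 1 over 2-fold lower in lung, against 17.8% and 15.5% of all genes tested. Their median log2 ratio was 0.85, or 0.42 in TPM. Macrophage marker genes summed to 782 FPKM in spleen and 27548 in lung. The part of macrophage RNA in these values was not tested, so they are not attributed to Tregs. Apoe, the apolipoprotein that carries cholesterol away from macrophages, had 203 FPKM in spleen and 2142 in lung, a log2 ratio of 3.40. Soat1, which esterifies cholesterol for storage, was at 9.42 and 30.1 FPKM, a log2 ratio of 1.67. Abca1, the third gene over 2-fold higher, was within 2-fold in TPM. Cyp27a1, a sterol hydroxylase, was at 2.29 and 0.505 FPKM from about 40 and 10 reads, a log2 ratio of -2.18.

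**Figure D4:**
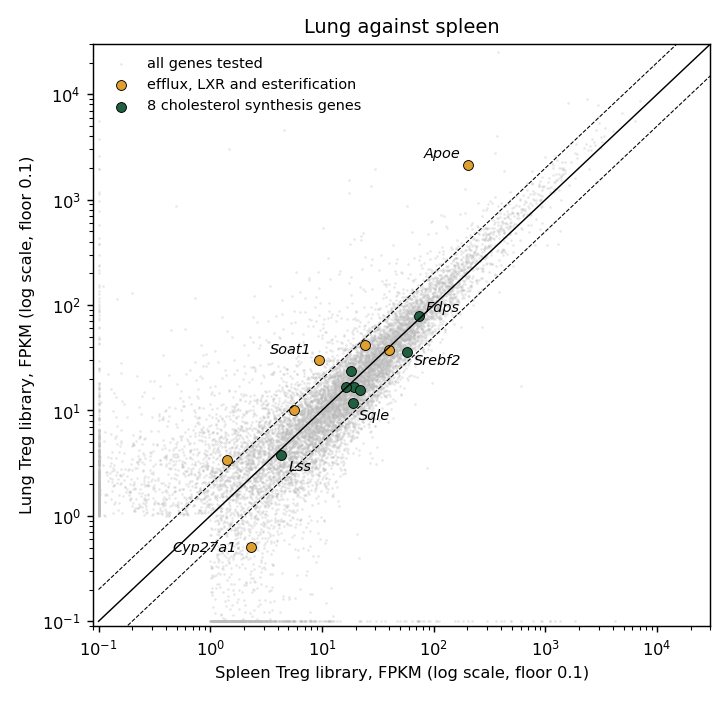
FPKM in lung against FPKM in spleen on log scales for the 12094 genes that reached 1 FPKM in either library (grey), with the 8 cholesterol synthesis genes in green and 7 genes of efflux, LXR and esterification in orange. The solid line is equality and the dashed lines are 2-fold. As deposited, all 8 synthesis genes lie between the dashed lines, whereas Apoe, Soat1 and Abca1 lie above and Cyp27a1 below them.

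The sorted cells were checked against marker genes. Foxp3 had 18.7 FPKM in spleen and 41.8 in lung, Cd4 had 195 and 179, Cd3e 513 and 369, and Actb 1325 and 1242, and the 9 listed genes of an 11-gene T cell list, led by Cd2 at 912 in spleen and Cd3g at 1103 in lung, had a median log2 ratio of -0.003. Of 8 Treg genes, Foxp3 included, 4 were higher and 4 lower in lung, with a median of 0.12, or -0.31 in TPM. The highest of these were Izumo1r in spleen (512, against 318 in lung) and Tnfrsf18 in lung (919, against 470.4 in spleen). Over 2-fold, Foxp3 and Ctla4 were higher and Lrrc32 was lower, and in TPM Ctla4 was higher and Il2ra, Izumo1r and Lrrc32 were lower. Markers of several other cell types differed by more than 2-fold. Counts below are as deposited and, unless 2-fold is named, cover any difference, also in genes under 1 FPKM. Over 2-fold higher and lower were 4 and 2 of 8 tested neutrophil genes, 3 and 1 of 6 dendritic and 5 and 0 of 5 fibroblast. They were 5 and 1 of 7 epithelial, 2 and 0 of 3 endothelial, 0 and 4 of 7 B cell and 0 and 8 of 8 pancreas genes. Of all genes tested, 17.8% and 15.5% were. All 12 macrophage genes were higher in lung, 9 of them over 2-fold, as were 9 in TPM, with FPKM summing to 782 in spleen and 27548 in lung, of which Lyz2 made up 376 and 24947. Of 8 neutrophil genes 6 were higher in lung, with sums of 487 and 1214, S100a8 leading at 276 and 804, and with Camp and Ngp at 0 in lung. Of 7 dendritic cell genes 4 were higher (sums of 13.3 and 55.2, led by Cd209a at 3.86 in spleen and Itgax at 24.1 in lung, Clec9a at 0 in lung). Of 8 fibroblast genes 7 were higher (0.290 and 163, led by Col1a1 at 0.129 in spleen and Mgp at 116 in lung), with Col3a1, Pdgfra, Lum, Mgp and Pdgfrb at 0 in spleen and Pdgfrb at 0 in lung. Of 8 lung epithelial genes 6 were higher (12.8 and 3127, led by Epcam at 8.75 in spleen and Scgb1a1 at 3021 in lung), with Sftpc, Sftpb and Lamp3 at 0 in spleen. All 8 B cell genes were lower (265 and 133, led by Cd79b at 90.4 and 59.7), and so were all 8 genes of the exocrine pancreas (187 and 3.18, led by Cela2a at 50.02 in spleen and Cela1 at 3.12 in lung), of which 6 were at 0 in lung. Of 8 endothelial genes 4 were higher and 2 lower (55.4 and 40.8, led by Pecam1 at 54.8 and 31.7), with Tie1 and Emcn at 0 in both libraries, Cdh5 and Tek at 0 in spleen and Kdr at 0 in lung. Macrophages and other cells express cholesterol genes too, and the part of these cells in the values of the 8 genes and of Apoe, Soat1, Lipa and Abca1 was not tested. With the median ratio of the T cell genes set to 1, the 8 genes had a median of -0.19 and 0 of them passed 2-fold. The median log2 ratio of the T cell genes was already -0.003, so this setting could change little. It does not remove RNA of other cells from the values.

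**Figure D5:**
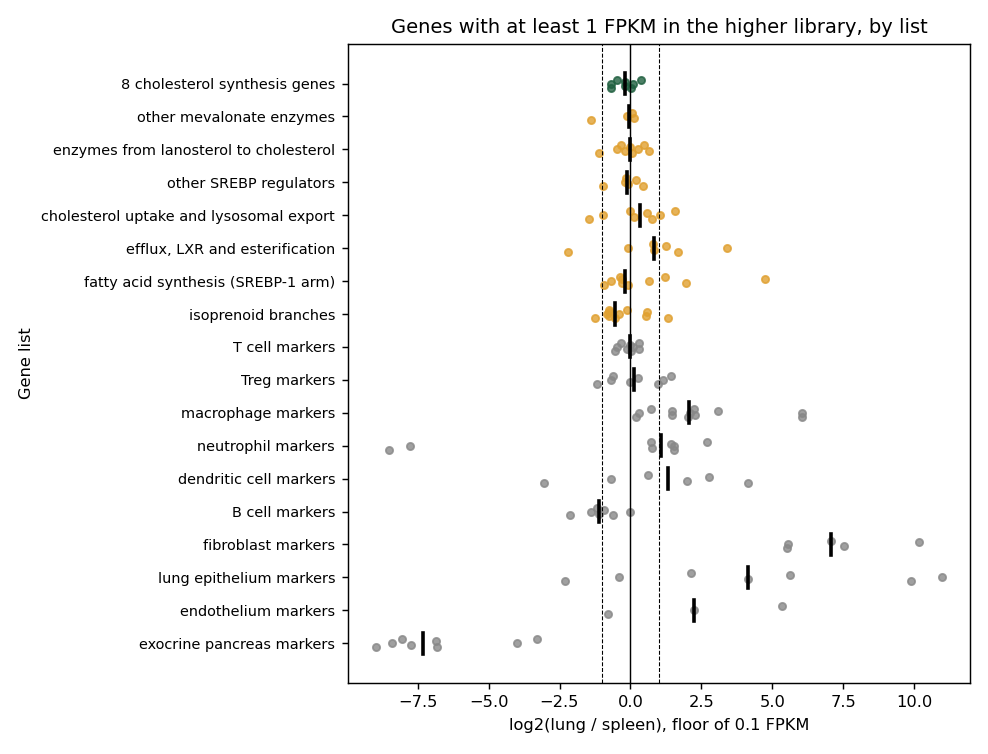
The log2 ratio of lung to spleen of each gene that reached 1 FPKM in either library, by list, with a bar at each list's median and dashed lines at 2-fold. In the values as deposited, the 8 cholesterol synthesis genes (green) lie between the dashed lines around a median of -0.19, as do the 9 T cell markers, whereas macrophage markers have a median of 2.07 and B cell markers one of -1.11.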

How the data were processed

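Bulk RNA-seq values of 2 libraries were used, spleen Tregs and lung Tregs, each from the pooled GFP+CD4+ cells of 3 mice. cDNA was made with SMART-Seq HT. The authors aligned single-end reads of 75 bases with TopHat2 2.1.1, Bowtie2 2.2.8 and SAMtools 0.1.18 (mm10) and deposited FPKM from Cuffdiff 2.2.1, and the annotation and the scaling between libraries are not given in the sources used here. FPKM summed to 599633 in spleen and 808853 in lung.

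FPKM under 0.1 were set to 0.1 and the log2 ratio of lung to spleen was taken. Genes that reached 1 FPKM in either library were called past 2-fold. No test was run, since each tissue has 1 library. Reads were estimated from FPKM and effective lengths of RefSeq-tied GENCODE M21 transcripts (GRCm38), with fragments of mean 200 and SD 80, at least 75 bases long. The value of 1 read was the one that most transcripts of at least 1500 nt shared within 1%, which at 1 kb of effective length was 0.0964 FPKM for spleen and 0.0849 FPKM for lung. The check took genes with 1 transcript length, of at least 1500 nt, and 1 to 10 estimated reads, 1391 in spleen and 864 in lung. Of these, 74.6% in spleen and 76.9% in lung then fell within 0.1 of a whole read. They include the 209 and 127 genes that set the value of 1 read, so the check is in part circular. Genes with several transcript lengths were given the median. Estimated reads summed to 9647308 in spleen and 12631701 in lung. Counting intervals are exact (95%).

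The 8 members and the gene lists were chosen with earlier results of these data known. Genes named outside the members were Srebf1, the 3 with the largest absolute log2 ratio in each pathway list, Foxp3, Cd4, Cd3e, Actb, the highest marker of each cell type list in each library, and the 3 protein-coding genes nearest to the members' median levels. Ctsb, 4930483K19Rik, Gm43738, Gm48342, Gm48574, Abca1, Stard3, Ctla4, Lrrc32, genes at 0 and genes that crossed 2-fold in TPM were named after their values had been seen. Some genes of these pathways are not reported here. The read estimate, the 2-fold calls and the counting intervals were run on simulated counts with counting (Poisson) error only. These were for genes with 1 transcript length and used the same effective lengths as the estimate. They held no PCR copies and no shared exons, so the run does not check the estimates or intervals in these libraries. Alternatives were a floor of 0.01 or 1 FPKM, a pseudocount of 0.1 or 1 FPKM, TPM, a median ratio of 1 over all genes or over T cell genes, equal upper quartiles, other FPKM filters, and thresholds of 1.5-fold and 3-fold. Tables were made in Python 3.11.15 with pandas 2.3.3, numpy 2.4.6 and scipy 1.17.1, and figures with matplotlib 3.10.9.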

Additional observations from a re-analysis of the deposited data

How the results depend on the processing

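The median log2 ratio of the 8 genes was -0.19 as deposited and stayed below 0 in all 9 settings. In TPM it was -0.62. The number of the 8 genes over 2-fold lower in lung went from 0 to 2 in TPM, where 27.5% of 12594 genes were lower. At a threshold of 1.5-fold it was also 2, where 25.4% of 12094 genes were lower. Both times these were Sqle and Srebf2, and the number higher was 0 in every setting. Of 64 single-gene values recomputed under 8 alternatives, 56 moved by less than the counting error and the other 8 were those in TPM. The floors lie below all values of the 8 genes and could not move them. The scalings other than TPM shifted the median of all genes tested by only -0.03, -0.01 and 0.003. These settings were therefore bound to leave the values within counting error. Among the 64 values, the sign differed in 4, which were Fdft1, Fdps and Idi1 in TPM and Idi1 with the median ratio of all genes tested set to 1. Both scalings shift the 8 genes alike, by -0.43 in TPM and by -0.03 with that median ratio, which gives these sign changes. Why the FPKM totals of the libraries differ was not tested. Lss rested on about 200.3 reads per library, which leaves its log2 ratio of -0.18 within counting error. Without replicate libraries, variation between mice was not measured, and counting intervals do not include it. No paired analysis was possible because each tissue has 1 library.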

Other observations

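Fatty acid synthesis, the branch that SREBP-1 favours, had 11 listed genes, of which 10 reached 1 FPKM. Of these, 3 were over 2-fold higher and 0 over 2-fold lower in lung, against 17.8% and 15.5% of all genes tested. Their median log2 ratio was -0.18. In TPM 2 were over 2-fold higher and 2 lower, against 13.3% and 27.5% of all genes. Elovl6, an elongase of long-chain fatty acids, had 2.97 FPKM in spleen and 11.6 in lung, a log2 ratio of 1.96 from about 177 and 783 reads. Acaca, acetyl-CoA carboxylase, was at 1.60 and 3.72 FPKM. Me1, the cytosolic malic enzyme that supplies NADPH, was at 0.0633 and 2.67 FPKM, and its splenic value rested on about 2.02 reads against 97.0 in lung, so that the counting interval of its log2 ratio was 3.53 to 8.48 without the floor.

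The isoprenoid branches that leave the pathway at farnesyl diphosphate had 11 genes, all above 1 FPKM, with a median log2 ratio of -0.55. Nus1, a subunit of the dolichol-making prenyltransferase, had 5.58 FPKM in spleen and 14.1 in lung, and was the 1 gene over 2-fold higher. Fntb, the beta subunit of farnesyltransferase, was at 9.39 and 3.97 FPKM and was the 1 gene over 2-fold lower. Coq2, of ubiquinone synthesis, was at 33.7 and 18.8 FPKM. Of all genes tested, 17.8% were over 2-fold higher and 15.5% over 2-fold lower. In TPM, 5 of the 11 were over 2-fold lower and 0 higher, against 27.5% and 13.3% of 12594 genes. Their median log2 ratio in TPM was -0.98, against -0.42 for all genes.

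Among 11327 protein-coding genes outside all lists that were above 0 FPKM in both libraries, Bloc1s6, Lclat1 and Clcn7 were nearest to the median levels of the 8 genes over the 2 libraries, at Euclidean distances of 0.0046, 0.0202 and 0.0245 on the log2 scale.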
